A study of Mus musculus with 3 samples.

Results

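This report describes open chromatin at 8 mouse genes that encode transcription factors, Yy1, Arnt2, Bhlhe41, Nrf1, Mafg, Maff, Tcf4 and Tcf12, out of 22359 protein-coding genes with an annotated start. The genes were chosen by name because the study set these factors beside the loss of the TFIID subunit Taf4 from pancreatic beta cells. For each gene, every ATAC-seq peak that touched the gene body or the 20 kb on either side was collected, and its promoters were examined separately. Of the 8 factors, the study named Arnt2, Bhlhe41 and Nrf1 from footprints in these same libraries, together with Yy2 rather than Yy1. It named Yy1, Mafg, Maff, Tcf4 and Tcf12 from gene networks in single cells, so the set as a whole does not come from accessibility footprints. Footprints concern the sites that a factor binds, whereas the values below concern the chromatin of the gene that encodes it. As the factors were picked in part on these libraries, a direction seen at their genes is not independent evidence.

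ATAC-seq reads out open chromatin from where a transposase can cut and tag the DNA. It was performed on cells dissociated with Accutase from isolated Langerhans islets of adult mice, labelled as strain C5LBl6, in 3 libraries: wild type (WT), Taf4 KO 1 week and Taf4 KO 5 weeks after inactivation. According to the study, the KO mice carried floxed Taf4 alleles and an Ins1-driven, tamoxifen-inducible Cre recombinase. It describes its controls in general as having intact Taf4 alleles but the same Cre and the same tamoxifen. The title of the WT library says wild type and does not give Cre or tamoxifen. Islets also hold cells in which an Ins1-driven Cre is not expected to act, such as alpha and delta cells, so a KO library can mix cells with and without Taf4, and the opening of chromatin within a cell cannot be told apart from a change in the share of a cell type. There was 1 library per group and no replicate, so the spread between animals is unknown, no test was run, and each comparison is one between libraries.

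As background, promoters of mammalian transcription factor genes often lie in CpG islands, which are accessible in most cell types, whereas intronic and distal elements are opened by factors of a given cell type. Many such genes have several promoters, and the E-protein genes Tcf4 and Tcf12 in particular produce isoforms with different amino ends from starts that lie far apart. YY1 is a zinc finger protein with a role in loops between enhancers and promoters, and Nrf1, nuclear respiratory factor 1, activates genes of mitochondrial function. Arnt2 and Bhlhe41 are basic helix-loop-helix (bHLH) proteins: Arnt2 pairs with PAS domain partners such as Sim1 and Npas4, and Bhlhe41 (DEC2) is a repressor within the circadian clock. Mafg and Maff are small Maf proteins, which lack a transactivation domain and pair with CNC factors such as Nfe2l2 or with each other. Tcf4 and Tcf12 are E-proteins, the usual partners of tissue-restricted bHLH factors such as Neurod1, and are held in check by Id proteins. Beta cells depend on the large Maf protein Mafa, and on Neurod1.

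The lists hold 60898 peaks in WT, 150354 at 1 week and 151725 at 5 weeks. The recovered background depth, an approximation, was 1.76 times that of WT at 1 week and 2.57 times at 5 weeks. Peaks were therefore compared mainly by position, width and rank within their own list. Fold is the peak over its local background, and the percentile is the place of a peak's -log10 q among all peaks of its list. A peak absent from a list was not called, which is not the same as closed chromatin: 95% of the 1 week peaks had a fold of 2.05 or more. Calls at 1 week also moved with base composition: among genes with a WT promoter peak, split into 5 equal groups by GC content of the surrounding 1 Mb, the share of WT promoter peaks not called at 1 week went from 3.73% in the least GC-rich group to 32.8% in the most GC-rich. Its part in the results below was not tested. A promoter peak was called at 7, 6 and 6 of 7 beta cell markers in the WT, 1 week and 5 week lists. Over all protein-coding genes the shares were 59.0%, 55.9% and 65.6%, and markers are few per cell type. Slc2a2 was called in WT alone, with a -log10 q of 2.15. By contrast, Ucn3 had 2.30 in WT, 8.73 at 1 week and 6.83 at 5 weeks. Alpha cell markers had 4, 4 and 5 of 5. The glucagon gene Gcg had none in WT and 1 in each KO list. Irx1 went the other way at 1 week, with a peak in WT (-log10 q 2.30) and none at 1 week. Delta cell markers had 1, 2 and 3 of 3, duct markers 2, 1 and 2 of 3, and endothelial markers 1, 1 and 2 of 3. Pancreatic polypeptide cell markers had none in any list, acinar markers 0, 0 and 1 of 4, stellate markers 0, 0 and 2 of 3, and immune markers 0, 1 and 0 of 3. The part of cell composition in what follows was not tested.

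Sequences are shown for the promoters and intronic elements on which the results below turn. Promoter sequences are placed by the start, not by the peak, and the WT peak of the second promoter of Tcf12 lay outside its bases. All are from the mouse genome build NCBIM37 (mm9), 300 bases each, written 5' to 3' in lower case, with letters that match a searched motif in capitals. For promoters they are the bases just upstream of the start on the gene's own strand: Yy1 from chr12:110030883-110031182 (plus strand), whose peak was narrower in both KO lists; Arnt2 from chr7:91558470-91558769 (minus strand), the 1 promoter with a higher -log10 q than in WT at both times; Bhlhe41 from chr6:145814079-145814378 (minus strand), which holds the E-box letters that its own protein reads; and the CpG-rich first and CpG-free second promoters of Tcf12 from chr9:71959627-71959926 and chr9:71743891-71744190 (minus strand), of which the first was called in all lists and the second in 2.
Yy1 promoter: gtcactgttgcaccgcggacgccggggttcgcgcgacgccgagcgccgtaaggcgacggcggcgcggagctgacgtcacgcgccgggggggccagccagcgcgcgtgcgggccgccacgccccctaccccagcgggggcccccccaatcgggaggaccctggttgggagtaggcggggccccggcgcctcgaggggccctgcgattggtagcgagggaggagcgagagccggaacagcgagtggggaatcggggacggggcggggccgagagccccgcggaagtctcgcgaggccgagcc
Arnt2 promoter: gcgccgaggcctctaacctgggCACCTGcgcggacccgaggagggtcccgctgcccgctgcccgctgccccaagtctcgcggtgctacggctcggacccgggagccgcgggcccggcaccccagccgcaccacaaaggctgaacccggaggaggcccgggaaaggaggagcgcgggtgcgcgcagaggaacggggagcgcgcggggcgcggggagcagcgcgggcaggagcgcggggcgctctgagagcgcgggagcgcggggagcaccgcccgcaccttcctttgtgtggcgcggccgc
Bhlhe41 promoter: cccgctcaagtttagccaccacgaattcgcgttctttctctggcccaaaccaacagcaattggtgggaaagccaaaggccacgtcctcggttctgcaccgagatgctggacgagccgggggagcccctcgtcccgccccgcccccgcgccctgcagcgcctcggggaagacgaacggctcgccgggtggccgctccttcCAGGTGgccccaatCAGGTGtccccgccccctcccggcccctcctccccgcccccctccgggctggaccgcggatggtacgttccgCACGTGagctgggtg
Tcf12 first promoter: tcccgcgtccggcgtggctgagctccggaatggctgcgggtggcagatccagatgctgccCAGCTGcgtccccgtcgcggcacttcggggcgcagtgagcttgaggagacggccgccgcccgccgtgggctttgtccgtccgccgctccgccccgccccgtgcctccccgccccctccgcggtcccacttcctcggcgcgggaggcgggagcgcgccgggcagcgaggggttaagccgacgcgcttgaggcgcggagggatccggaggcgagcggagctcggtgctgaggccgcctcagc
Tcf12 second promoter: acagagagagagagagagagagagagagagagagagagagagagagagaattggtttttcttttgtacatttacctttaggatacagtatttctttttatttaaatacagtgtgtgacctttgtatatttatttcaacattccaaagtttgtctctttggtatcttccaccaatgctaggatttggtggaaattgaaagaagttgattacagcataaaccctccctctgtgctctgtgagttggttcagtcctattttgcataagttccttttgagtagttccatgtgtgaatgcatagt
The 2 intronic elements, written on the plus strand, are the middle of the bases that the peaks of all 3 lists shared. They come from the intronic region of each gene with the highest mean percentile among those called in all 3 lists, in Arnt2 at chr7:91420935-91421234 and in Tcf12 at chr9:71823989-71824288. Neither overlaps an annotated exon.
Arnt2 intronic element: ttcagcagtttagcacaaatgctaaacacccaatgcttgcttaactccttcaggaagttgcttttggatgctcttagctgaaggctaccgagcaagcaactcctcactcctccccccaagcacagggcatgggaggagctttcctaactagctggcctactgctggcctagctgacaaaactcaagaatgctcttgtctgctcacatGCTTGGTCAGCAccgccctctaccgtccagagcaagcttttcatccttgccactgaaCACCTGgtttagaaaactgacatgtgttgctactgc
Tcf12 intronic element: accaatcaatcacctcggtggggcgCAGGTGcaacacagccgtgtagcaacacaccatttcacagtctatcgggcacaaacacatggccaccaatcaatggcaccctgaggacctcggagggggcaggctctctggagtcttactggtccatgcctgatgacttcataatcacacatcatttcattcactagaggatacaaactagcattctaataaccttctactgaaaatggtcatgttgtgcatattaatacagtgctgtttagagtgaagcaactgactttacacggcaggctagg

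Each of the 8 genes had a promoter peak in each of the 3 lists, 8 of 8 throughout, where 59.0% of all protein-coding genes had one in WT, 55.9% at 1 week and 65.6% at 5 weeks. A promoter was taken as the 1000 bp before and the 100 bp after an annotated start of a protein-coding transcript, and starts within 500 bp of each other were taken as 1 promoter. By this rule the genes have 16 promoters, 8 that lie first in their gene and 8 that lie later. Of these, 13 were called in the WT list, 10 at 1 week and 13 at 5 weeks. The 3 called in WT and not at 1 week were the first promoter of Tcf4 and the second promoters of Mafg and Tcf12, and all were called again at 5 weeks. No promoter of these genes was called in a KO list and not in WT. The 3 of 13 stand beside 16.2% of all WT promoter peaks not called at 1 week, and the 0 of 13 at 5 weeks beside 2.59%. Among promoters that lie first in their gene, 1 of 8 was not called at 1 week, beside 15.1% of all such promoters. Among those that lie later, 5 of 8 had a WT peak, beside 30.4% of all, and 2 of those 5 were not called at 1 week, beside 20.9%. With so few promoters, these shares do not set the genes apart from the rest of the genome.

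**Figure D1:**
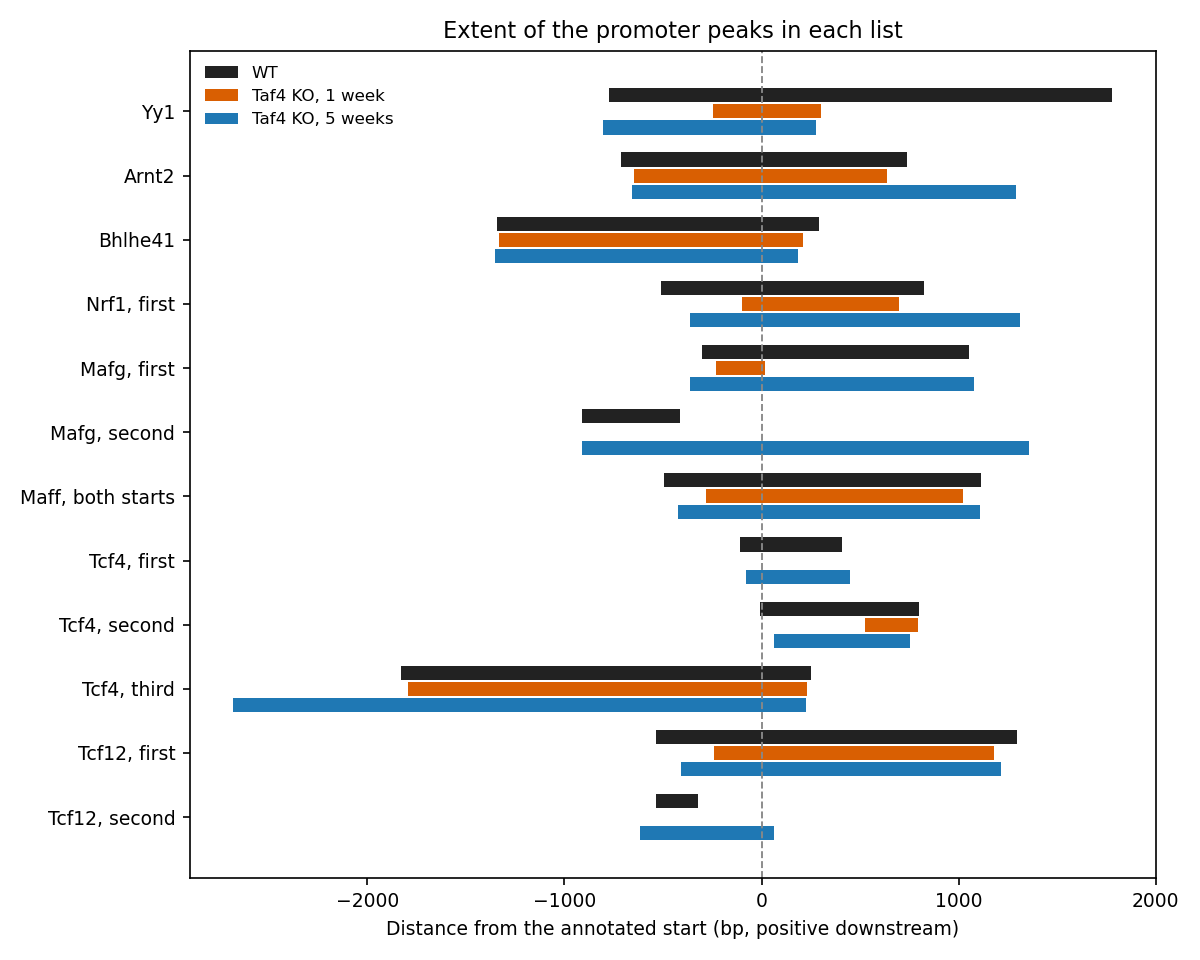
Extent of the strongest peak at each promoter, in bp from the annotated start, for WT (black), 1 week (orange) and 5 weeks (blue), 1 library each; a missing bar means that no peak was called, and Nrf1's other 3 promoters, with no peak in any list, are left out. The shortest 1 week bars are those of Mafg first (249 bp), Tcf4 second (268 bp) and Yy1 (549 bp), and the bar is absent at Mafg second, Tcf4 first and Tcf12 second.

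Where a promoter was called in both WT and the 1 week list, its 1 week peak was the narrower in 10 of 10 promoters (9 separate peaks, since the starts of Maff share one), beside 64.8% of all promoters. At 5 weeks the peak was narrower than in WT at 6 of 13 and wider at 7 of 13, beside 36.6% narrower over all promoters. The fold was lower than in WT at 7 of 10 promoters at 1 week, beside 82.1% of all, and at 11 of 13 at 5 weeks, beside 76.0% of all. The 3 with a higher fold at 1 week were those of Arnt2 and Bhlhe41 and the second promoter of Tcf4, and the 2 with a higher fold at 5 weeks were those of Arnt2 and the first of Mafg. The lists differ in depth, and these values describe them as deposited.

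**Figure D2:**
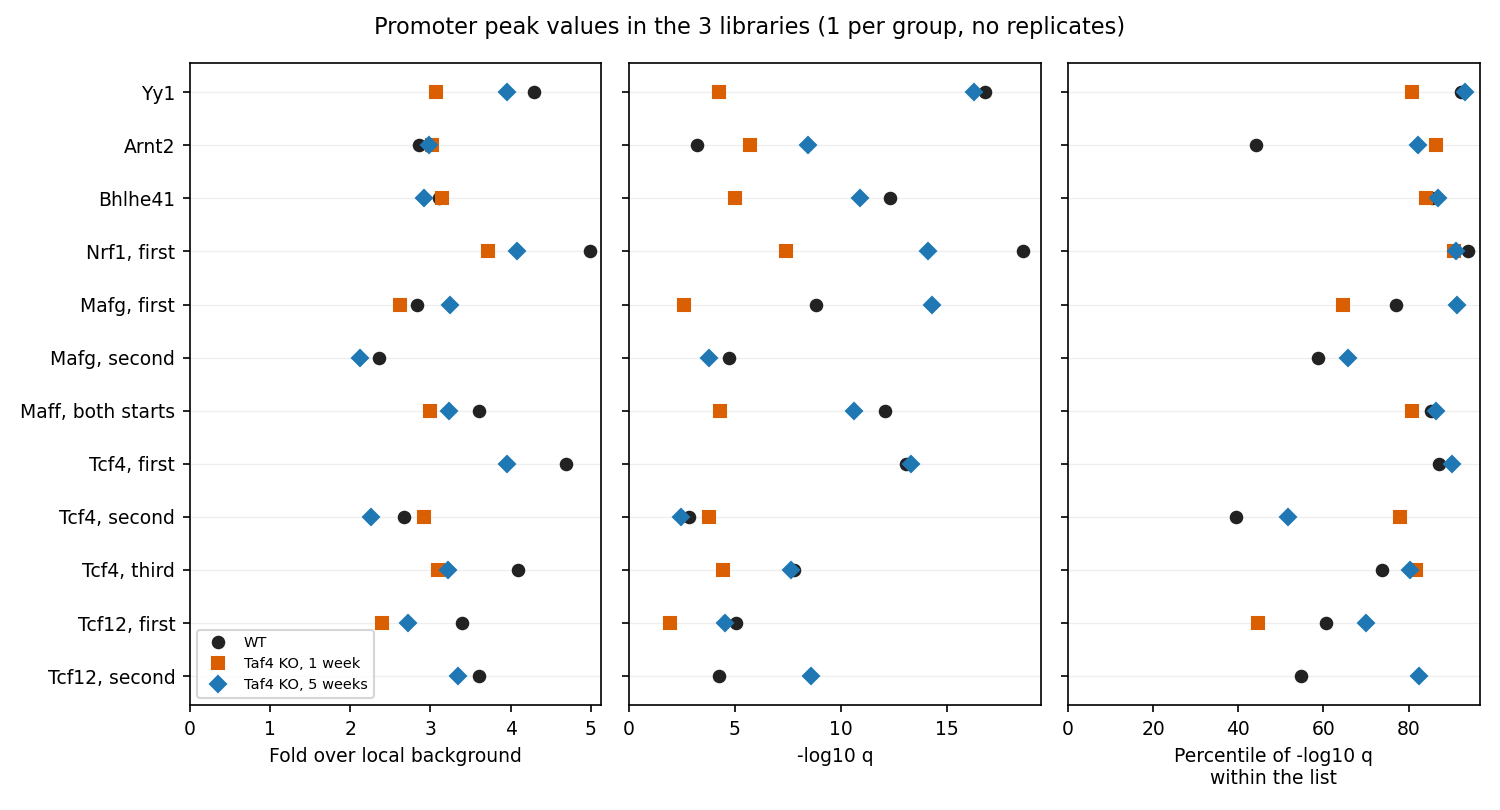
Fold over local background, -log10 q and percentile of -log10 q within the list for each promoter peak, with 1 point per library (WT black circles, 1 week orange squares, 5 weeks blue diamonds) and no error since there are no replicates. The -log10 q at 1 week lies left of WT at every promoter called in both lists but those of Arnt2 and Tcf4 second, and percentiles differ less at most promoters, with wide gaps at Arnt2 (44.1 in WT, 86.5 and 82.1) and Tcf4 second (39.5 in WT, 77.9 and 51.6).

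Yy1 (ENSMUSG00000021264) has 1 promoter and spans chr12:110031183-110054842 on the plus strand. Its promoter peak was 2553 bp wide in WT, 549 bp at 1 week and 1080 bp at 5 weeks. The fold was 4.29, 3.07 and 3.96, and the -log10 q 16.8, 4.24 and 16.3. These lie at the 92.3, 80.7 and 93.3 percentiles of their lists, so the WT and 5 week libraries were alike and the 1 week library was lower. The WT peak reached 1779 bp past the start and the KO peaks 303 and 274 bp, although each KO list held a further, separate peak within the same region. Away from its promoter, Yy1 had a weak intronic peak in WT alone at chr12:110046622-110046931, with a -log10 q of 2.72 and no peak in either KO list. Also in the gene body, an exonic peak in WT alone was at the 23.1 percentile and an intronic one at 5 weeks alone at the 56.1 percentile, both named here after their values were seen. The remaining 4 regions of its window lay downstream of the gene, 3 of them over the neighbour Slc25a29, a mitochondrial carrier, whose promoter peak was strong in all lists, at the 96.6, 94.4 and 95.2 percentiles. A flanking peak at chr12:110067792-110068078, inside Slc25a29, had a -log10 q of 2.16 in WT and 7.67 at 5 weeks, and was not called at 1 week.

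Nrf1 (ENSMUSG00000058440) spans chr6:29997988-30103458 on the plus strand and has 4 promoters by the rule above. Its peaks stood at the first promoter, and the other 3 had none in any list. The first promoter peak had the highest -log10 q of these genes in WT, 18.6, with 7.43 at 1 week and 14.1 at 5 weeks. Its fold was 4.99, 3.72 and 4.08 and its width 1335, 795 and 1675 bp. At 1 week the peak began at -97 bp from the start, against -509 bp in WT and -364 bp at 5 weeks. A second strong element lay 54.1 kb into the gene at chr6:30051591-30052665, where the region's midpoint is intronic but an exon is overlapped. In order of WT, 1 week and 5 weeks, its -log10 q was 14.2, 4.81 and 21.5 and its fold 5.31, 3.19 and 5.13. At 5 weeks this inner element thus had a higher -log10 q than the promoter itself, while in WT and at 1 week the promoter had the higher. Nrf1 was the gene with the fewest peaks at 5 weeks, 6 in WT, 4 at 1 week and 3 at 5 weeks. Peaks in WT alone were weak, the strongest being an intronic one at chr6:30057589-30057912 with a -log10 q of 2.39.

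Arnt2 (ENSMUSG00000015709) (chr7:91394791-91558469, minus strand) differed from the other genes in direction at 1 week. It alone then had a higher -log10 q at its strongest promoter peak than in WT. At 5 weeks Mafg, Tcf4 and Tcf12 had a higher one as well. The promoter peak of Arnt2 had the lowest -log10 q of the strongest promoter peaks of these genes in WT, 3.19, but 5.70 at 1 week and 8.44 at 5 weeks. The percentile was 44.1, 86.5 and 82.1. Its fold, however, was nearly the same in the 3 libraries, 2.86, 3.02 and 2.98, and the widths were 1455, 1283 and 1948 bp. The recovered pileup was 19.1 reads over a background of 6.02 for WT, 31.1 over 9.61 at 1 week and 45.7 over 14.7 at 5 weeks. At equal fold, -log10 q is higher the more reads lie behind a peak, and the part of depth in this difference was not tested. The window held 7 peaks in WT, 14 at 1 week and 17 at 5 weeks. Regions with no WT peak numbered 17, with -log10 q between 1.13 and 5.17. When each list was cut to the same number of peaks the counts were 7, 4 and 7, so the higher count at 1 week turned into a lower one. Among the intronic elements called in all lists, the one highest in mean percentile, 137.1 kb into the gene at chr7:91420725-91421928, had a -log10 q of 5.23, 8.19 and 9.63 and a fold of 3.79, 3.85 and 3.38. The WT peak with the highest -log10 q in the window was intronic instead, at chr7:91551953-91552880. It had a -log10 q of 8.03 and a fold of 4.38 in WT, none at 1 week, and 4.81 with a fold of 2.73 at 5 weeks. Of the regions in both KO lists and not in WT, the highest in mean percentile was a flanking one at chr7:91568176-91568411, 9.8 kb upstream of the start, with -log10 q of 1.75 and 3.88 and percentiles of 36.0 and 66.5. An intronic one at chr7:91504174-91504738, named after its values were seen, was lower at 1 week (27.9) and higher at 5 weeks (72.7). In WT alone an intronic peak at chr7:91459490-91459758 had a -log10 q of 1.86.

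Bhlhe41 (ENSMUSG00000030256), a short gene at chr6:145806763-145814078 on the minus strand, had a promoter peak of nearly the same extent and fold in the 3 lists. It was 1636, 1541 and 1536 bp wide, with folds of 3.11, 3.14 and 2.92. The -log10 q was 12.3, 5.01 and 10.9, at the 85.6, 84.1 and 86.8 percentiles. The recovered pileup was 63.3 reads over a background of 19.7 in WT, 25.3 over 7.35 at 1 week and 61.1 over 20.3 at 5 weeks. Pileup and background were thus both lowest at 1 week. Of the 5 regions of its window, 4 were shared by all lists and 1, a flanking region at chr6:145794239-145795690 with a -log10 q of 2.40, was in WT alone. Of the shared ones outside the promoter, the highest in mean percentile over the 3 lists lay downstream at chr6:145799359-145799719, at 64.2, 87.2 and 85.2, with -log10 q of 5.61, 5.94 and 9.98 and folds of 3.24, 3.45 and 3.64. This element was thus at least as strong in the KO lists as in WT. Another flanking element at chr6:145804154-145805011 was strong in WT (-log10 q 12.8) and at 5 weeks (8.93) and weak at 1 week (1.43). It lay at the 86.5, 17.0 and 83.2 percentiles, the largest gap between WT and 1 week among the regions of this gene in all lists, and is named here after its values were seen.

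The small Maf genes lie in GC-rich surroundings, with a GC content of 50.1% over 1 Mb at Mafg and 50.8% at Maff, in the most GC-rich of the 5 groups. Mafg (ENSMUSG00000051510, chr11:120486431-120494914, minus strand) has 2 promoters. The first had a peak of 1355 bp in WT, 249 bp at 1 week and 1443 bp at 5 weeks. Its -log10 q was 8.82, 2.61 and 14.3, and its fold 2.83, 2.62 and 3.24, so the 5 week library was the highest and the 1 week library the lowest. At the second promoter the -log10 q was 4.74 in WT and 3.76 at 5 weeks, and no peak was called at 1 week, where the nearest peak was 1875 bp away, at the first promoter. Maff (ENSMUSG00000042622, chr15:79177971-79189502, plus strand) has 2 promoters under a single peak in each list. That peak was 1606, 1304 and 1536 bp wide, with -log10 q of 12.1, 4.28 and 10.6 and folds of 3.61, 2.99 and 3.23. The windows of these genes held few peaks at 1 week only. Mafg had 6, 2 and 6 peaks and Maff 6, 2 and 8. Together they held 7 of the 12 regions of the whole set that were missing from the 1 week list alone. At Maff the highest-ranked such region overlaps an exon, at chr15:79187376-79188332, with a -log10 q of 8.41 and 13.2. At Mafg it is the promoter of the neighbouring lipid enzyme gene Pcyt2 at chr11:120478523-120479509, with 14.4 and 20.5. A contrasting neighbour is the promoter of Pycr1, a proline synthesis gene, which had a peak in all 3 lists, at the 83.3, 97.2 and 95.9 percentiles. Upstream of Maff, the promoter of the phospholipase gene Pla2g6 had a -log10 q of 16.5, 2.48 and 13.5. In the most GC-rich group as a whole, 32.8% of WT promoter peaks were not called at 1 week.

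Tcf4 (ENSMUSG00000053477, chr18:69503800-69847621, plus strand) has 3 promoters, the last with a peak region 248.1 kb into the gene. The first promoter had a narrow, strong peak of 514 bp in WT and 525 bp at 5 weeks. The fold was 4.69 and 3.96, and the -log10 q 13.1 and 13.3, at the 87.1 and 90.2 percentiles. No peak was called there at 1 week, and the nearest 1 week peak was 1693 bp away, at the second promoter. The recovered pileup was 38.0 reads over a background of 7.30 in WT and 47.3 over 11.2 at 5 weeks. Tcf4 lies in the least GC-rich of the 5 groups (41.9% over 1 Mb), in which WT promoter peaks were seldom missing at 1 week. In this group 0.884% of WT promoter peaks with a -log10 q of 10 or more (15 of 1696) were not called at 1 week, and 7.37% of those under 10. The first promoter of Tcf4 is 1 of those 15. This split was made after its values were seen. The second promoter had peaks in all lists, with widths of 807, 268 and 692 bp, -log10 q of 2.85, 3.76 and 2.46, and percentiles of 39.5, 77.9 and 51.6. The last promoter had broad peaks of 2080, 2022 and 2906 bp that lay mostly upstream of the start, with -log10 q of 7.81, 4.45 and 7.67. The order of the promoters therefore differed: the first had the highest -log10 q in WT and at 5 weeks, and the last had it at 1 week.

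Inside Tcf4 a cluster of intronic elements between 155.1 and 162.5 kb from the first start was called in all lists. The highest in mean percentile, at chr18:69658445-69659335, had a -log10 q of 10.7, 8.35 and 11.8 and a fold of 4.22, 3.82 and 3.76. At 1 week this intronic element, not a promoter, had the highest -log10 q of the gene. An intronic region at chr18:69677005-69677418 was called in both KO lists and not in WT, with a -log10 q of 2.74 at 1 week and 9.42 at 5 weeks. Another at chr18:69559446-69559740 was called in WT and at 5 weeks, with 2.09 and 3.70, and one at chr18:69595330-69595529 in WT alone, with 2.24. The element at 227.0 kb had a -log10 q of 4.32, 3.80 and 13.3, and is named after its values were seen. Tcf4 had 15, 15 and 20 peaks in its window, and 15, 10 and 11 in lists of equal length.

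Tcf12 (ENSMUSG00000032228, chr9:71692059-71959626, minus strand) has 2 promoters of opposite composition, shown above. Over 300 bases the first is 76.0% G and C with a CpG content of 1.02 of that expected from its bases, and the second 36.7% with no CpG. The first promoter had a broad peak of 1831, 1420 and 1622 bp, a fold of 3.40, 2.40 and 2.72, and a -log10 q of 5.03, 1.94 and 4.52. The second had a peak of 210 bp with a -log10 q of 4.23 in WT, no peak at 1 week, and a peak of 679 bp with 8.57 at 5 weeks. Its fold was 3.61 in WT and 3.35 at 5 weeks. The WT peak lay between -534 and -325 bp from the start, whereas the 5 week peak ran across it, from -616 to 62 bp. The 300 bases shown above thus lie outside the WT peak and inside the 5 week peak. By -log10 q the first promoter was thus the stronger in WT and the second at 5 weeks, whereas by fold the second was the stronger in both. At 1 week the nearest peak to the second promoter was 56641 bp away. Tcf12 lies in the same least GC-rich group as Tcf4, with a WT -log10 q at this promoter below 10. The strongest element of the gene was neither promoter but the intronic one shown above, 135.5 kb from the first start at chr9:71823816-71824381. Its -log10 q was 14.2, 7.99 and 22.2, at the 88.9, 91.8 and 97.1 percentiles, and its fold 6.22, 3.84 and 5.13. In each list it exceeded both promoters of Tcf12 in -log10 q and in fold, and its WT fold was the highest among all member regions of the WT list. The window held 6, 5 and 14 peaks, with 10 intronic regions at 5 weeks against 2 in WT. In lists of equal length the counts were 6, 4 and 8. In WT alone there was a flanking peak at chr9:71684403-71684629 with a -log10 q of 1.46.

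**Figure D3:**
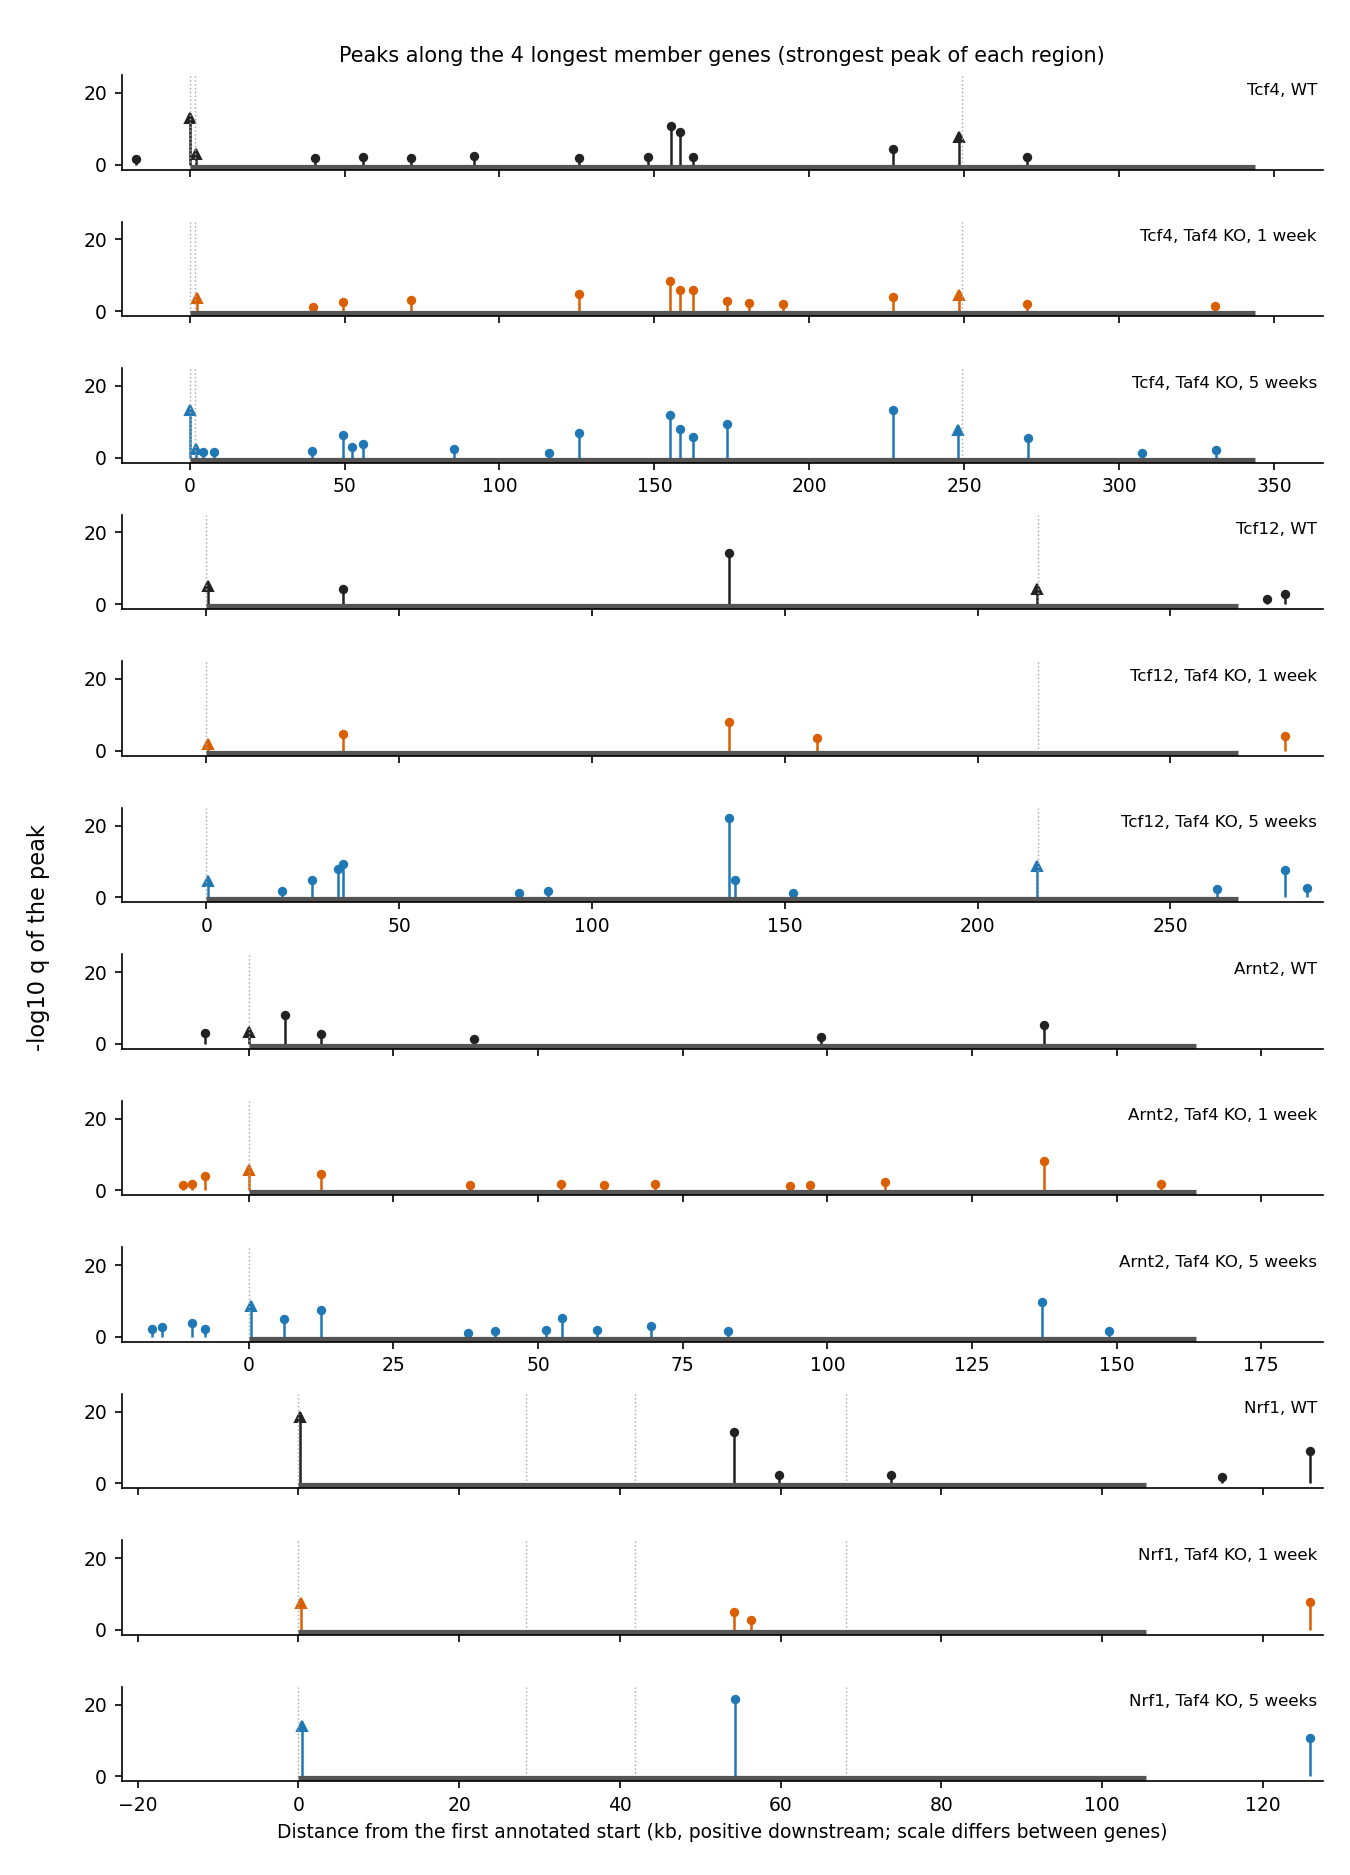
Strongest peak of each region along Tcf4, Tcf12, Arnt2 and Nrf1, plotted by distance in kb from the first annotated start (horizontal) and -log10 q in its own list (vertical), for WT (black), 1 week (orange) and 5 weeks (blue); triangles are regions at the gene's own promoters, circles other regions, dotted lines annotated starts and grey bars the gene body. The first promoter of Tcf4 stands at 13.1 in WT and 13.3 at 5 weeks with no mark at 1 week, and the intronic element of Tcf12 is the tallest of its gene in each library, at 14.2, 7.99 and 22.2.

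The 8 windows together held 58 WT peaks, 51 from 1 week and 79 from 5 weeks, or 0.879 and 1.36 times the WT number. The same ratios over all protein-coding genes were 1.27 and 1.61. In lists of equal number the windows held 58, 34 and 51 peaks, ratios of 0.586 and 0.879 beside 0.730 and 0.947 over all genes, so that there were then fewer peaks than in WT at both times, here and over all genes. The median gene had 0.757 times its WT number at 1 week and 1.17 times at 5 weeks among these 8, against 0.800 and 1.10 among all genes with a WT peak. At 1 week, 6 genes had fewer peaks than in WT, Tcf4 had as many and Arnt2 had more. Of the 18248 genes with a WT peak in their window, 52.7% had fewer. At 5 weeks, Bhlhe41 and Nrf1 had fewer, Yy1 and Mafg as many and the other 4 more, and 18.5% of the same 18248 genes had fewer. By GC group, again among genes with a WT peak in their window, 12.8% in the least GC-rich group had fewer peaks at 1 week. In that group Tcf4 had as many and Tcf12 had 1 fewer. In the most GC-rich group, that of Mafg and Maff, 86.3% had fewer. Of the 58 WT peaks, 32 were overlapped by a peak at 1 week, 55.2% with a Wilson 95% interval of 42.5 to 67.3, and 61.8% over all genes. At 5 weeks 45 were overlapped, 77.6% (65.3 to 86.4), and 80.5% over all genes. The intervals cover the counting of peaks only. Both shares of these genes lie near those of all genes.

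Peaks of the 3 lists were merged into 99 regions where they overlapped, directly or through another peak. The peaks of a region in all lists thus need not all overlap each other. In Tcf4 at chr18:69542412-69544345, those of WT and 1 week did not. Of the 99 regions, 32 were in all lists, 12 in WT alone, 10 at 1 week alone and 25 at 5 weeks alone. A further 12 were in WT and at 5 weeks, 7 in both KO lists and not in WT, and 1 in WT and at 1 week. The regions of all gene windows, each counted once per window, were formed in the same way. In both KO lists and not in WT were 7.07% of the regions of these genes, beside 12.7% over all genes, at 5 weeks alone 25.3% beside 24.0%, at 1 week alone 10.1% beside 17.3%, in WT alone 12.1% beside 7.95%, in WT and at 5 weeks 12.1% beside 9.76%, in WT and at 1 week 1.01% beside 0.417%, and in all lists 32.3% beside 27.9%. In lists of equal number, an alternative chosen after seeing the data for these shares, the first of them was 2.94% beside 5.32% and the second 10.3% beside 10.6%. By place, 57 regions were intronic by their midpoint, 21 in the flanks, 12 at own promoters, 6 at promoters of other genes and 3 exonic. The 12 own-promoter regions were called 12, 9 and 12 times, 0.750 and 1.00 times the WT number beside 0.958 and 1.12 over all genes. The intronic regions were called 22, 28 and 40 times, 1.27 and 1.82 times the WT number beside 1.72 and 2.12. In lists of equal number the intronic calls were 22, 15 and 20, ratios of 0.682 and 0.909 beside 0.815 and 0.971, so that the KO lists then had fewer intronic calls than WT, here and over all genes. The 7 in both KO lists and not in WT comprised 6 intronic regions and 1 in a flank, 4 in the window of Arnt2 and 3 in that of Tcf4.

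**Figure D4:**
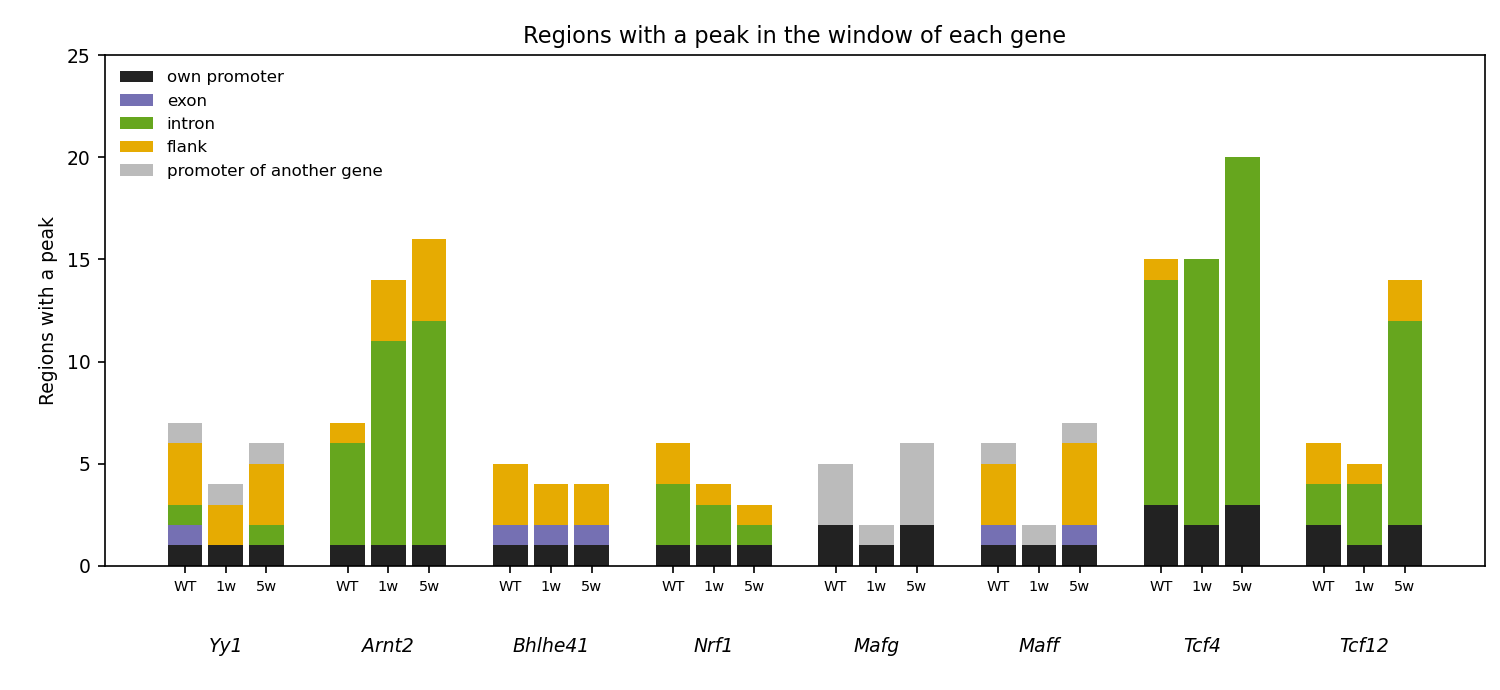
Number of regions with a peak in the window of each gene (gene body and 20 kb on each side), in WT, at 1 week (1w) and at 5 weeks (5w), stacked by where the region lies. Intronic regions make up the higher bars of Arnt2 (5, 10 and 11) and of Tcf12 at 5 weeks (2, 3 and 10), whereas the bars of Mafg and Maff are low at 1 week only.

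Promoter strength was then ranked over all genes, by the percentile of a gene's strongest promoter -log10 q among the 11261 genes with a promoter peak in all lists. At 1 week the rank of Arnt2 was higher than in WT by 20 points or more, at 5.78 and 41.3, beside 23.4% of genes that were higher by as much. Yy1, at 66.3 and 26.5, and Tcf4, at 50.2 and 28.6, were lower by as much, beside 22.4% of genes. At 5 weeks 1 gene was lower by 20 points or more, Nrf1 at 72.5 and 43.6, beside 11.7% of genes, and none was higher, beside 12.1%. So 3 of 8 at 1 week and 1 of 8 at 5 weeks moved this far, a share near the background. The median change over the 8 genes was -17.4 points at 1 week and -11.1 at 5 weeks, against 1.51 and -0.293 over all genes. The lower and upper quartiles of single genes were -16.9 and 18.5 points at 1 week, and -10.2 and 9.64 at 5 weeks. Ranks differed by GC group at 1 week, with a median change of 13.1 points in the group of lowest GC content and -9.11 in that of the highest. Ranked by -log10 q, 7 of the 8 genes were lower at 1 week than in WT, but ranked by fold, an alternative chosen after seeing the data, 4 were. The share of all genes that were lower is not reported here, so these counts do not set the 8 genes apart. The 1 week directions of Arnt2 (35.5 points by -log10 q and 23.9 by fold) and Tcf4 (-21.6 and -24.7) were the same on both scales. So were those of Yy1 (-39.8 and -13.2), Nrf1 (-16.5 and -5.51) and Tcf12 (-9.04 and -20.0), whereas Bhlhe41, Mafg and Maff reversed. At Tcf4 both scales compare different promoters, the first in WT and the last at 1 week, where the first was not called.

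**Figure D5:**
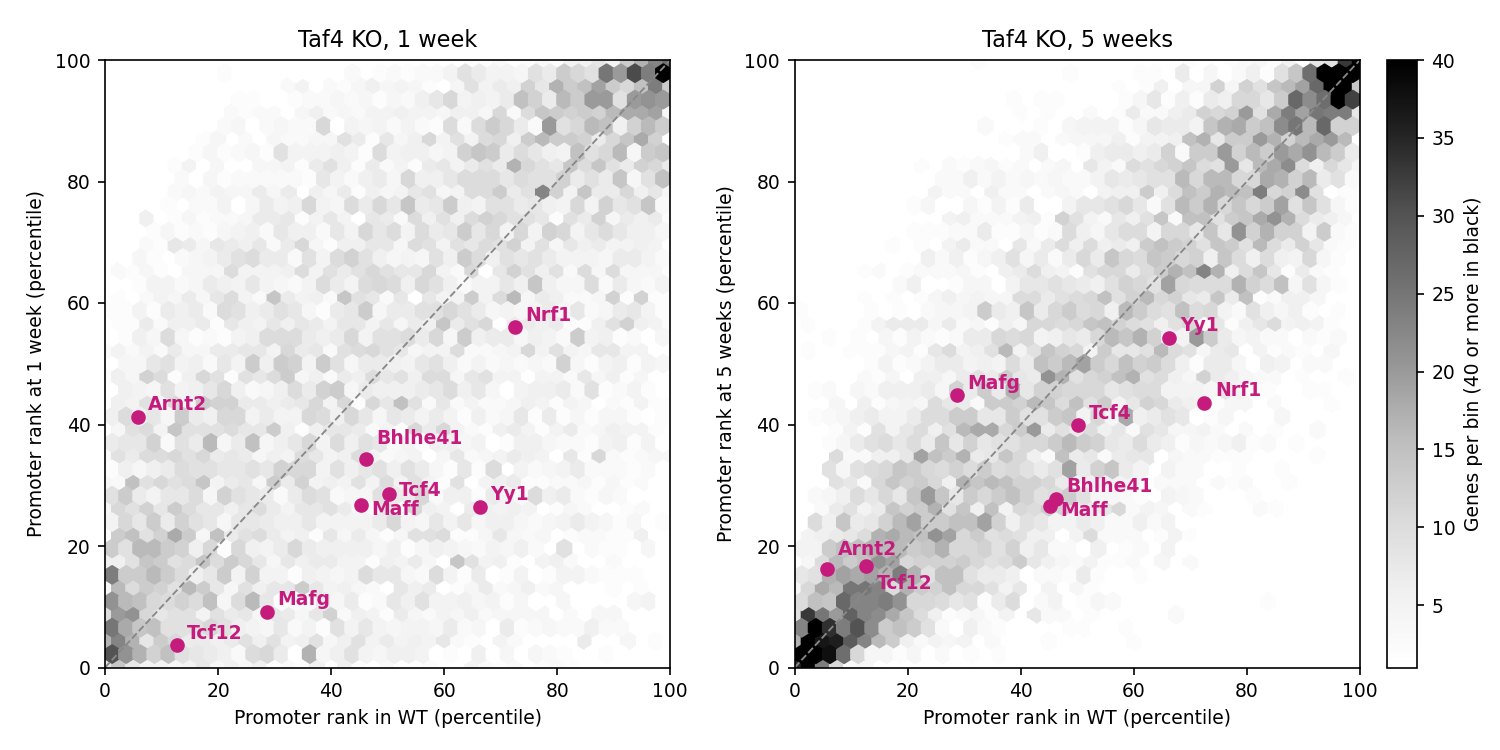
Promoter rank in WT (horizontal) against 1 week (left) and 5 weeks (right), as percentiles of the strongest promoter -log10 q among 11261 genes; grey bins show how many genes they hold, the dashed line marks equal rank and the 8 genes are in magenta. At 1 week 7 of the 8 lie below the line and Arnt2 above it (5.78 in WT, 41.3 at 1 week), and the spread of all genes is wider at 1 week than at 5 weeks.

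The base composition of the promoters was not used to choose the genes. Over all 16 promoters the median GC content of 300 bases was 59.8% and the median observed CpG 0.78 of that expected, against 52.0% and 0.39 over all promoters, with a range of 36.7% to 77.7% GC. The first promoters of these genes had a median GC content of 72.0% over 300 bases and a median observed CpG of 0.96 of that expected, against 53.3% and 0.48 over the first promoters of all genes, and that of Tcf4 lay below both, at 45.3% and 0.40. When all promoters with a WT peak were split into 5 equal groups by this local GC content, 4 promoters of these genes fell in the group of lowest content, the first and second of Tcf4 and the second ones of Mafg and Tcf12. Of these 4, all but the second of Tcf4 were the ones not called at 1 week, and the other 9 were called. The 300 bases need not lie under a peak. The WT peaks of the second promoters of Mafg and Tcf12 lay wholly outside them, and that of the second of Tcf4 began at -9 bp from the start. Over all promoters the share not called at 1 week was 21.1% in the group of lowest local GC content and 10.8% in the highest, the opposite order from that by the surrounding 1 Mb.

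Motifs were searched on both strands in the 300 bases upstream of each start, and a match describes letters only. The E-box CACGTG, read by Bhlhe41 and by Arnt2 and Myc family dimers, was at the Bhlhe41 promoter 15 bases before the start, at the first promoter of Maff and at the second of Tcf4, and in 6.78% of all promoters. The E-protein box CAGGTG was at Arnt2, at Bhlhe41 in 2 places and at the first promoter of Tcf4, and in 20.8% of all promoters. Its symmetric form CAGCTG was at the first promoter of Tcf12, and in 14.4% of all. The element TGACNNNGC, bound by CNC and small Maf pairs, was at the first promoter of Mafg and 1 of the promoters of Nrf1 with no peak, and in 11.5% of all. No promoter of these genes held the Nrf1 element GCGCATGCG, found in 1.40% of all, the Yy1 element AAGATGGCG, found in 0.639%, or the Maf letters TGCTGAC, found in 4.54%. The intronic element of Arnt2 held TGCTGAC and TGACNNNGC in overlap and a CAGGTG, and that of Tcf12 a CAGGTG. In 300 bases around the middle of all WT peaks, these letters were in 7.17%, 14.9% and 27.5%.

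Relatives and partners of the 8 factors were counted in the same way, from a list of 39 genes, all matched by symbol. A promoter peak was called at 33 in WT, 32 at 1 week and 36 at 5 weeks, beside 59.0%, 55.9% and 65.6% of all protein-coding genes. Of the 33 called in WT, 3 were not called at 1 week and 0 were not called at 5 weeks. Counted by promoter over all genes, 16.2% and 2.59% of WT promoter peaks were not called. Yy2, whose footprint the study named, had no promoter peak in any list, nor had the Id gene Id3; both are named here after their calls were seen. Among PAS and bHLH partners, 9, 8 and 10 of 10 were called. Npas4, a partner of Arnt2 induced by activity, had a promoter -log10 q of 9.03 in WT and 10.8 at 5 weeks and was not called at 1 week, and Sim2 had 2.53 at 5 weeks only. All 5 of the Myc family were called in each list. Among Maf and CNC factors, 8, 8 and 10 of 10 were called. The remaining small Maf gene, Mafk, resembled the second promoter of Mafg, with 10.8 in WT, 9.50 at 5 weeks and no peak at 1 week. Keap1, which restrains Nfe2l2, had 4.35 at 1 week, 9.80 at 5 weeks and none in WT, and Nfe2l3 had 6.13 at 5 weeks only. The 4 genes that the study sets beside these factors were called 4, 3 and 4 times, with Bptf, a chromatin remodeller, at 8.29 in WT, 6.82 at 5 weeks and not called at 1 week.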

How the data were processed

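Reads were mapped to mm9 by the authors with Bowtie 1.0.0, keeping unique alignments, after bcl2fastq 2.17.1.14, and broad peaks were called per library with MACS2 2.1.1; the use of a control library, removal of duplicates or a shift of reads is not given in the sources used here. The deposited peak lists give the fold over local background as a ratio, and a -log10 p-value and -log10 q-value averaged over the peak. A score column, also deposited, was not used. Genotype and time labels gave the groups, 1 library each.

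Peaks on chromosomes 1 to 19, X and Y were kept (2 mitochondrial peaks per list were left out) and placed on NCBIM37 with the GENCODE annotation vM1, the same build as mm9. Peaks were shared from 1 bp of overlap. Depth is not given in peak lists. The local background and pileup of a peak were solved from its fold and p, and the floor of a list is the first percentile of these backgrounds, 3.66, 6.45 and 9.38 reads in WT, at 1 week and at 5 weeks (unsolved for 5 peaks of the 5 week list). Equal read extension was assumed. This recovery and the overlap search were tested on simulated data. The recovery treats the averaged values of a peak as those of 1 position. The simulated data held no averaging and so could not test that step, and the recovered depths are approximate. Python 3.11.15, numpy 2.4.6, pandas 2.3.3, scipy 1.17.1 and matplotlib 3.10.9 were used.

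All promoters are named and, of other regions per gene, the highest in percentile in WT alone and in WT and 5 weeks (by WT), in all lists and in both KO lists (by the mean), with relatives only where calls differ (some are not reported here). Genes, lists and tests were chosen with earlier results of these data known, and the ranking over genes, the 20 points, the -log10 q of 10 at Tcf4 and the grouping by local GC content after seeing them. Alternatives were -log10 q minimums of 3 and 5, lists of equal number, lists scaled to the WT background, a promoter window of 2000 bp, flanks of 0 and 50 kb, 50% reciprocal overlap and ranking by fold. Intervals are Wilson intervals. Sequences are from the reference genome. Promoter sequences of Tcf4 are not shown.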

Additional observations from a re-analysis of the deposited data

Results flagged for a closer look

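At Mafg and Tcf12 the promoter rank lay on opposite sides of WT at the 2 times, which is what drew attention to them; the difference was not tested, since each group is 1 library. Mafg was lower by 19.5 points at 1 week (-19.5) and higher by 16.1 points at 5 weeks. Tcf12 differed by -9.04 and 4.03 points. At Tcf12 the promoter with the highest -log10 q is the first in WT and at 1 week and the second at 5 weeks, so its later value compares different promoters. By fold it is the second in WT and at 5 weeks and the first at 1 week, so there the 1 week value does. Ranked by fold, Mafg was at 6.17 and 16.5 points and Tcf12 at -20.0 and 1.39 points, so the opposite directions of Mafg rest on -log10 q.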

How the results depend on the processing

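No paired analysis was possible because each group has 1 library, and no replicate could be left out. Of the values recomputed under other settings, 56 kept their direction and stayed within the margin used (counts and ratios within 1.5 times, shares within their interval, promoter ranks within 20 points), 11 moved and 7 reversed. Within the margin, ranking by fold still moved Maff at 5 weeks from -18.6 to -3.01, Nrf1 from -16.5 to -5.51 at 1 week and from -28.9 to -13.1 at 5 weeks, and Tcf12 at 1 week from -9.04 to -20.0. With only peaks of -log10 q of at least 5, 3 genes and 3 promoters were called at 1 week. The window ratio at 1 week was then 0.577, and 0.534 in lists scaled to the WT background, beside 0.790 and 0.674 over all genes, so that the 1 week ratio over all genes, 1.27 as deposited, fell below 1. With no flank it was 1.00, beside 1.39. At 5 weeks it reversed to 0.879 in lists of equal number and 0.793 in scaled lists; over all genes it was 0.947 and 0.807 there. The share of WT peaks overlapped at 5 weeks was 97.0% at a -log10 q of at least 3, 92.3% at 5 and 56.9% with 50% reciprocal overlap. Ranked by fold in place of -log10 q, an alternative chosen after seeing the data, the promoter rank reversed at Bhlhe41 (24.6 points at 1 week and 1.50 at 5 weeks), Mafg (6.17 at 1 week), Maff (3.34 at 1 week) and Yy1 (3.82 at 5 weeks), and that of Yy1 at 1 week moved to -13.2; the cause was not tested. The wider promoter window added 1 promoter at 1 week, the first of Tcf4, through the peak of its second promoter. Peak lists give no reads outside peaks, so a region not called cannot be given a level.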
